A study of Mus musculus with 8 samples.

Results

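Asparagine synthetase, the enzyme encoded by Asns that makes asparagine from aspartate, stood higher in regulatory T cells of SRC-3 knockout mice than in control regulatory T cells, and 9 other genes of the amino acid stress response were examined beside it. The 10 genes are Asns, Atf4, Ddit3, Chac1, Trib3, Psat1, Phgdh, Sesn2, Slc7a5 and Slc3a2. They were taken by symbol from a table of 55487 genes, where they fill 11 rows because Ddit3 is listed under 2 identifiers. Asns was selected on its difference between YFP+ cells of knockout and wild-type mice, and the other 9 were added as targets of the transcription factor ATF4 or as genes of amino acid supply. The question was whether they share the pattern of Asns over the 4 groups of the study. Of the 11 rows, 10 passed the filter on low values and were tested. Chac1 did not pass it and is given by its values alone.

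The spleens of mice without tumors gave the regulatory T cells (Tregs, a CD4 lineage that restrains immune responses) whose RNA was sequenced, to look for differences that bear on the anti-tumor effect of knockout Tregs. The gene targeted is Ncoa3, which encodes the transcriptional coactivator SRC-3. Each of the 4 groups holds 2 libraries, named by the number in the label. KO YFP+ (84 and 85) are the YFP+ Tregs of SRC-3 knockouts, whose background is mixed from C57BL/6 and 129SvEv. KO YFP- (84 and 85) share that genotype and background and are the YFP- Tregs. WT YFP+ (23 and 24) are YFP+ Tregs of C57BL/6 wild-type controls, and SRC-3ff (68 and 72) are Tregs of a further wild-type control on 129SvEv, with no YFP sort in its label. The titles of that control read SRC_3ff, a name for floxed SRC-3. The labels give no age or treatment and do not say what YFP marks, which promoter drives it or which part of Ncoa3 is deleted. Strain differs between the knockout and each control, so strain and genotype cannot be told apart, and the sort differs as well between SRC-3ff and the YFP+ groups.

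The sum of FPKM (fragments counted per length of transcript and per sequenced total) was 384107 to 416393 per library, and 12573 to 13251 genes reached 1 FPKM. Ncoa3 had 10.9 and 10.2 FPKM in KO YFP+, 32.1 and 32.2 in KO YFP-, 46.3 and 42.7 in WT YFP+ and 49.7 and 35.4 in SRC-3ff. The KO YFP- libraries thus kept most of the control level of Ncoa3 but lay below all 4 control libraries. Their knockout is taken from the label, and how far Ncoa3 was deleted in them was not tested. Foxp3, the transcription factor that defines Tregs, ranged from 19.9 to 31.0 FPKM over the 4 YFP+ libraries and from 113 to 205 over the other 4. In bulk RNA, fewer cells of a type and less RNA per cell cannot be told apart. The labels do not state separate animals for all libraries, so p-values measure the spread between libraries, which may be technical.

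When amino acids run short, uncharged tRNA activates the kinase GCN2, which phosphorylates the translation factor eIF2. General translation then slows while the ATF4 message is translated, and ATF4 binds C/EBP-ATF response elements in the promoters of genes for amino acid synthesis, import and tRNA charging. Endoplasmic reticulum stress reaches the same step through the kinase PERK, and the whole is called the integrated stress response. Because ATF4 is controlled largely through its translation, the level of Atf4 mRNA is only a partial readout of the protein.

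The sequences that carry the question are the promoter matches to this response element, since Asns and any gene that moved with it could share one. The RefSeq promoter table (GRCm38.p6, 250 bases before to 50 after each gene's start) held 9 of the 10 genes and not Slc7a5. The letters TGATGNAAN were searched on both strands, with N any base. Among the 9 promoters 3 held a match, against 1215 of 27025 promoters of all genes (4.5%) and 16 of 43 promoters of the other integrated stress response genes described further on (37.2%). Each line gives 30 bases 5′ to 3′ on the strand of the gene, with the match in capitals.
Asns: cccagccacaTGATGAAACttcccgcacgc
Chac1: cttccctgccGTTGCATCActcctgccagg
Trib3: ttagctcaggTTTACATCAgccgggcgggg
The Asns stretch lies at chr6:7693213-7693242 on the minus strand. Its match reads along the gene and begins 23 bases before the RefSeq start. In GENCODE M21 the gene spans 7675169 to 7693254, so by that annotation the match lies inside it. Its letters are those of the nutrient-sensing response element described for the human ASNS promoter. The Chac1 stretch (chr2:119351038-119351067, plus strand) and the Trib3 stretch (chr2:152344028-152344057, minus strand) hold the match on the opposite strand, so the capitals there are its reverse complement. Chac1, Trib3 and Asns therefore share the letters, but the values that follow differ among the 3 genes. No match was found in the windows of Atf4, Ddit3, Psat1, Phgdh, Sesn2 and Slc3a2, which says only that these letters are not in those windows.

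Asns (ENSMUSG00000029752, chromosome 6, 7675169 to 7693254, minus strand, GRCm38) had 11.2 and 8.81 FPKM in KO YFP+, 7.73 and 8.43 in KO YFP-, 1.48 and 1.98 in WT YFP+ and 3.07 and 5.29 in SRC-3ff. The means were 10.01 ± 1.69 FPKM in KO YFP+, 8.08 ± 0.499 in KO YFP-, 1.73 ± 0.354 in WT YFP+ and, for SRC-3ff, 4.18 ± 1.57 (SD, n = 2 each). All 4 libraries of knockout mice lay above all 4 control libraries, and the groups followed the order KO YFP+, KO YFP-, SRC-3ff, WT YFP+ with no overlap between neighbours. The step between the means of KO YFP+ and KO YFP- was smaller than the gap between the 2 KO YFP+ libraries. On the log2(FPKM + 1) scale, the gap between the lowest KO YFP- and the highest SRC-3ff library was smaller than that between the 2 SRC-3ff libraries. A pattern with all 4 knockout-mouse libraries above all controls was shown by 4.05% of the 14134 genes tested, and among the 10 tested rows by Asns only. The pattern includes the KO YFP+ and WT YFP+ libraries on which Asns was selected, so it is a description and nothing is read from that share.

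Set as ratios of mean FPKM, Asns was 5.78 times as high in KO YFP+ as in WT YFP+ and 4.67 times as high in KO YFP- as in WT YFP+. Against SRC-3ff the ratio was 2.39 for KO YFP+ and 1.93 for KO YFP-. The 2 sorts of the knockout differed by a ratio of 1.24, and the 2 controls by 0.414 (WT YFP+ over SRC-3ff). The 2 controls thus differed from each other about as much in ratio as the knockout groups differed from SRC-3ff. On the log2(FPKM + 1) scale, the difference was 2.01 ± 0.24 for KO YFP+ minus WT YFP+ (limma standard error), the contrast that selected the gene and so a description with no test.

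The comparison of KO YFP- with SRC-3ff is the one that holds no library of that contrast, and Asns was tested there. Its difference of 0.84 ± 0.24 (95% interval 0.27 to 1.41) had a limma p of 0.0103 and did not pass after Benjamini-Hochberg adjustment over all genes (adjusted p = 0.15, threshold 0.05). Both KO YFP- libraries were above both SRC-3ff libraries. Without SRC-3ff 72 the difference was 1.16 (adjusted p = 0.20), and without SRC-3ff 68 it was 0.53 (adjusted p = 0.36), so the size of this difference depended on which SRC-3ff library was kept. Few genes passed in this comparison, 0.644% of those tested, and none of the 10 rows did.

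**Figure D1:**
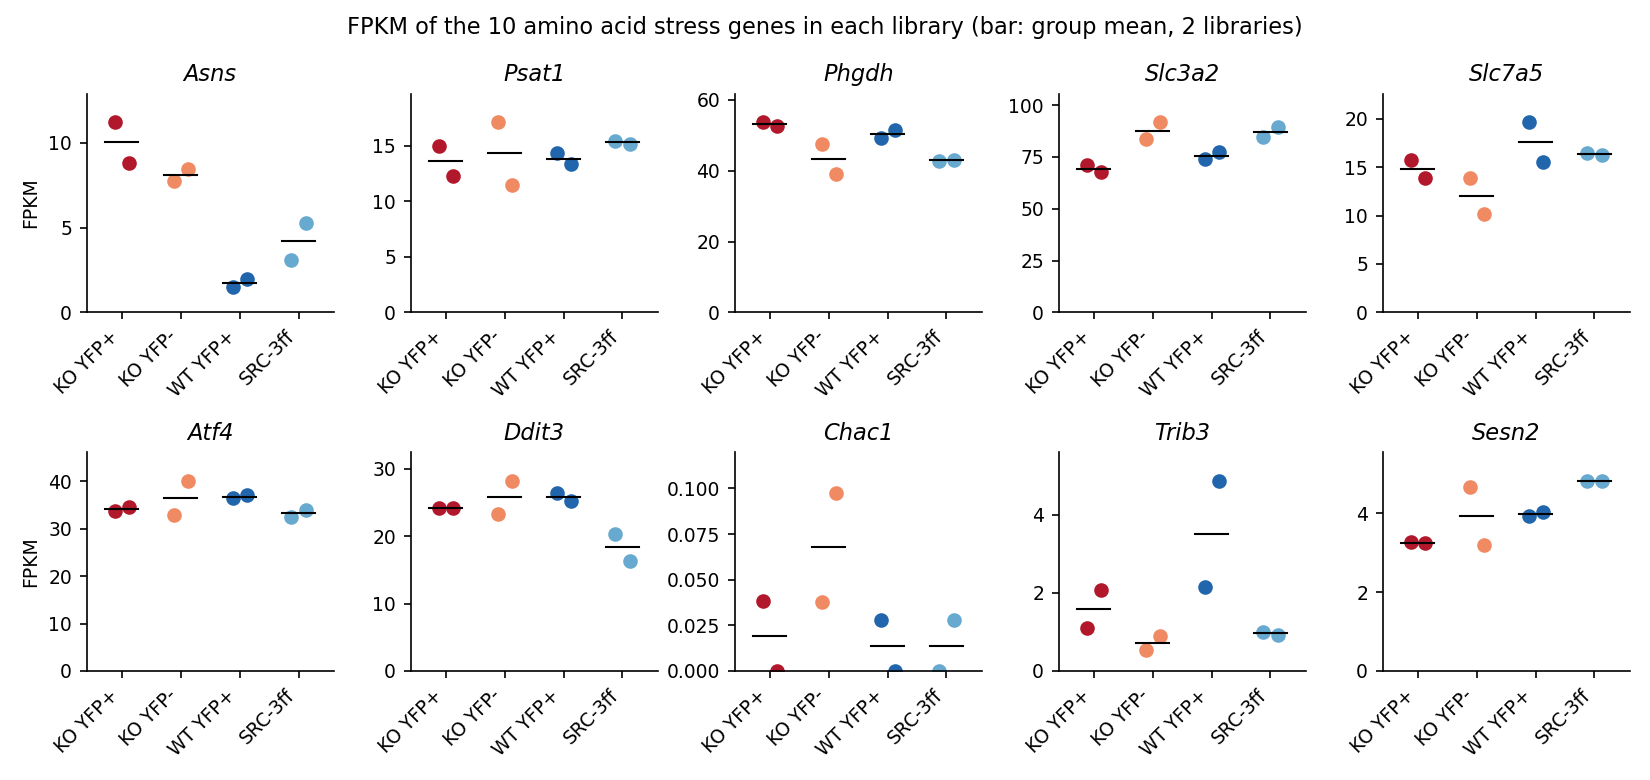
FPKM of the 10 genes (one panel each, linear axis from 0) in every library of KO YFP+, KO YFP-, WT YFP+ and SRC-3ff. Points are libraries and bars are means of 2 libraries. In the Asns panel the 4 knockout-mouse libraries, 7.73 to 11.2, sit above the 4 control libraries, 1.48 to 5.29. No other panel shows that split. Of Ddit3, the identifier with the higher mean is drawn.

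In KO YFP+ minus WT YFP+ the other genes did not follow Asns. Asns was the one tested row past the threshold, in a comparison where 0.757% of all genes passed and from which it had been selected, so nothing is read from that count. Over the 9 other rows the differences lay between -0.76 (Trib3) and 0.075 (Phgdh) on the log2(FPKM + 1) scale, with a median of -0.12 beside 0.01 over all genes. Of these 9 rows, 8 had a lower mean in KO YFP+ and 1, Phgdh, a higher one. In absolute size the Asns difference was 2.01 and the next, that of Trib3, 0.76 with the opposite sign.

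Psat1 and Phgdh encode phosphoserine aminotransferase and phosphoglycerate dehydrogenase, enzymes of the serine synthesis pathway that ATF4 raises together with Asns in many cells. Phgdh (chromosome 3) had 53.7 and 52.5 FPKM in KO YFP+, 47.6 and 39.2 in KO YFP-, 49.3 and 51.4 in WT YFP+ and 42.8 and 43.0 in SRC-3ff. All 4 YFP+ libraries lay above the 4 others, whichever the genotype, a pattern of 6.86% of tested genes that Trib3 had as well, and KO YFP- spanned SRC-3ff. The difference was 0.29 ± 0.11 for KO YFP+ minus KO YFP- (limma adjusted p = 0.21) and 0.30 ± 0.11 for KO YFP+ minus SRC-3ff (adjusted p = 0.13), neither past the threshold. Psat1 (chromosome 19) had 15.0 and 12.3 FPKM in KO YFP+, 17.1 and 11.5 in KO YFP-, 14.3 and 13.3 in WT YFP+ and 15.4 and 15.1 in SRC-3ff. KO YFP- alone covered the range of all 8 libraries, and no comparison of Psat1 came near the threshold (adjusted p of 0.62 to 0.96 in the 5 comparisons tested). The highest Psat1 library was 1.49 times the lowest, and that of Phgdh 1.37 times, against 7.57 times for Asns.

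Slc7a5 and Slc3a2 encode LAT1 and CD98hc, the light and heavy chain of the transporter that carries leucine and other large neutral amino acids into activated T cells. Slc3a2 (chromosome 19) had 71.0 and 67.9 FPKM in KO YFP+, 83.5 and 91.8 in KO YFP-, 74.0 and 77.2 in WT YFP+ and 84.6 and 89.5 in SRC-3ff. It divided the libraries by sort, with all 4 YFP+ libraries below the 4 others, a pattern that 10.9% of tested genes had and that no other of the 10 rows had. The difference was -0.33 ± 0.09 for KO YFP+ minus KO YFP- (limma adjusted p = 0.090) and -0.32 ± 0.09 for KO YFP+ minus SRC-3ff (adjusted p = 0.064), so neither passed. For KO YFP- minus SRC-3ff it was 0.01 ± 0.09. Slc7a5 (chromosome 8) had 15.7 and 13.8 FPKM in KO YFP+, 13.9 and 10.2 in KO YFP-, 19.7 and 15.5 in WT YFP+ and 16.5 and 16.3 in SRC-3ff. Both KO YFP- libraries were below both libraries of each control, the reverse of Asns, with differences of -0.52 ± 0.18 from WT YFP+ (adjusted p = 0.13) and -0.43 ± 0.18 from SRC-3ff (adjusted p = 0.26). The 2 chains of the transporter thus differed in their order over the groups.

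Atf4 (chromosome 15), the transcription factor at the centre of the response, had the narrowest range of the 10 tested rows. It measured 33.8 and 34.6 FPKM in KO YFP+, 32.9 and 40.2 in KO YFP-, 36.5 and 37.1 in WT YFP+ and 32.6 and 33.9 in SRC-3ff. The highest library was 1.23 times the lowest, both KO YFP+ libraries lay between the libraries of KO YFP-, and the adjusted p in the 5 comparisons tested was 0.47 to 0.95. The 95% interval of KO YFP+ minus SRC-3ff ran from -0.22 to 0.31 log2 units.

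Ddit3 encodes CHOP, a transcription factor downstream of ATF4 that promotes cell death under prolonged stress. ENSMUSG00000025408, the identifier with the higher mean (chromosome 10, 127290774 to 127296288), had 24.2 and 24.3 FPKM in KO YFP+, 23.4 and 28.3 in KO YFP-, 26.5 and 25.2 in WT YFP+ and 20.4 and 16.4 in SRC-3ff. SRC-3ff was below the 6 libraries of the other groups, among which KO YFP- spanned the rest. The difference was 0.39 ± 0.14 for KO YFP+ (limma adjusted p = 0.12), 0.47 ± 0.14 for KO YFP- (adjusted p = 0.16) and 0.48 ± 0.14 for WT YFP+ (adjusted p = 0.080), each minus SRC-3ff and none past the threshold. ENSMUSG00000116429 overlaps the first on the same strand (127290829 to 127293753), so fragments may be divided between the 2 identifiers and both are uncertain. It had 13.9 and 20.4 FPKM in KO YFP+, 18.9 and 17.3 in KO YFP-, 16.97 and 24.2 in WT YFP+ and 15.8 and 13.6 in SRC-3ff. SRC-3ff was again low, but it overlapped KO YFP+.

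Chac1, Trib3 and Sesn2 are targets of the pathway that answer it with feedback or a change in metabolism. Chac1 (chromosome 2), a glutathione-degrading enzyme that is a sensitive marker of ATF4 activity in many cells, was close to 0 in every group. It was listed at 0.0384 and 0 FPKM in KO YFP+, 0.0379 and 0.0977 in KO YFP-, 0.0277 and 0 in WT YFP+ and 0 and 0.0278 in SRC-3ff. It therefore followed no group, and no difference is given for it.

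Trib3 (chromosome 2), a pseudokinase that is induced by ATF4 and CHOP and restrains them, did not follow the order of Asns. It had 1.11 and 2.08 FPKM in KO YFP+, 0.538 and 0.888 in KO YFP-, 2.15 and 4.87 in WT YFP+ and 1.004 and 0.924 in SRC-3ff. WT YFP+, where Asns was lowest, held the 2 highest Trib3 libraries, and KO YFP- held the 2 lowest. The differences were -1.34 ± 0.34 for KO YFP- minus WT YFP+ (limma adjusted p = 0.055) and 1.13 ± 0.34 for WT YFP+ minus SRC-3ff (adjusted p = 0.085), neither past the threshold. Without WT YFP+ 23, the lower of its 2 libraries, they were -1.78 (adjusted p = 0.040) and 1.58 (adjusted p = 0.048), so both calls turned on which WT YFP+ library was kept. Trib3 lies 13.6 Mb and Chac1 46.6 Mb from the targeted Ncoa3 on chromosome 2.

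Sesn2 (chromosome 4) encodes Sestrin2, a leucine sensor that holds back mTORC1 and is raised by ATF4. It had 3.27 and 3.24 FPKM in KO YFP+, 4.67 and 3.20 in KO YFP-, 3.93 and 4.03 in WT YFP+ and 4.83 and 4.81 in SRC-3ff. KO YFP+, where Asns was highest, was below both controls, and SRC-3ff was above all other libraries. The difference was -0.45 ± 0.18 for KO YFP+ minus SRC-3ff (limma adjusted p = 0.15), not past the threshold.

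Across all comparisons 0 of the 9 rows other than Asns passed limma's test after adjustment over all genes. The share of all tested genes that passed was 4.9% for KO YFP+ minus KO YFP-, 10.2% for KO YFP+ minus SRC-3ff, 9.22% for WT YFP+ minus SRC-3ff and 9.27% for KO YFP- minus WT YFP+. At an unadjusted p below 0.05, 2 of the 9 rows were counted in KO YFP+ minus KO YFP-, 4 in KO YFP+ minus SRC-3ff, 2 in WT YFP+ minus SRC-3ff, 3 in KO YFP- minus WT YFP+ and 2 in KO YFP- minus SRC-3ff. The share of all genes at that limit was 18.8%, 28.6%, 26.2%, 23.5% and 18.3% in that order, so the counts lie near the background. In each comparison that holds a knockout group, these rows included both higher and lower ones. The smallest adjusted p of the 9 rows was 0.090, 0.064, 0.080, 0.055 and 0.16 in that order of comparisons. With 2 libraries a group, a p that misses the threshold does not show that these genes were equal between groups. The comparisons share libraries and are not independent of each other.

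**Figure D2:**
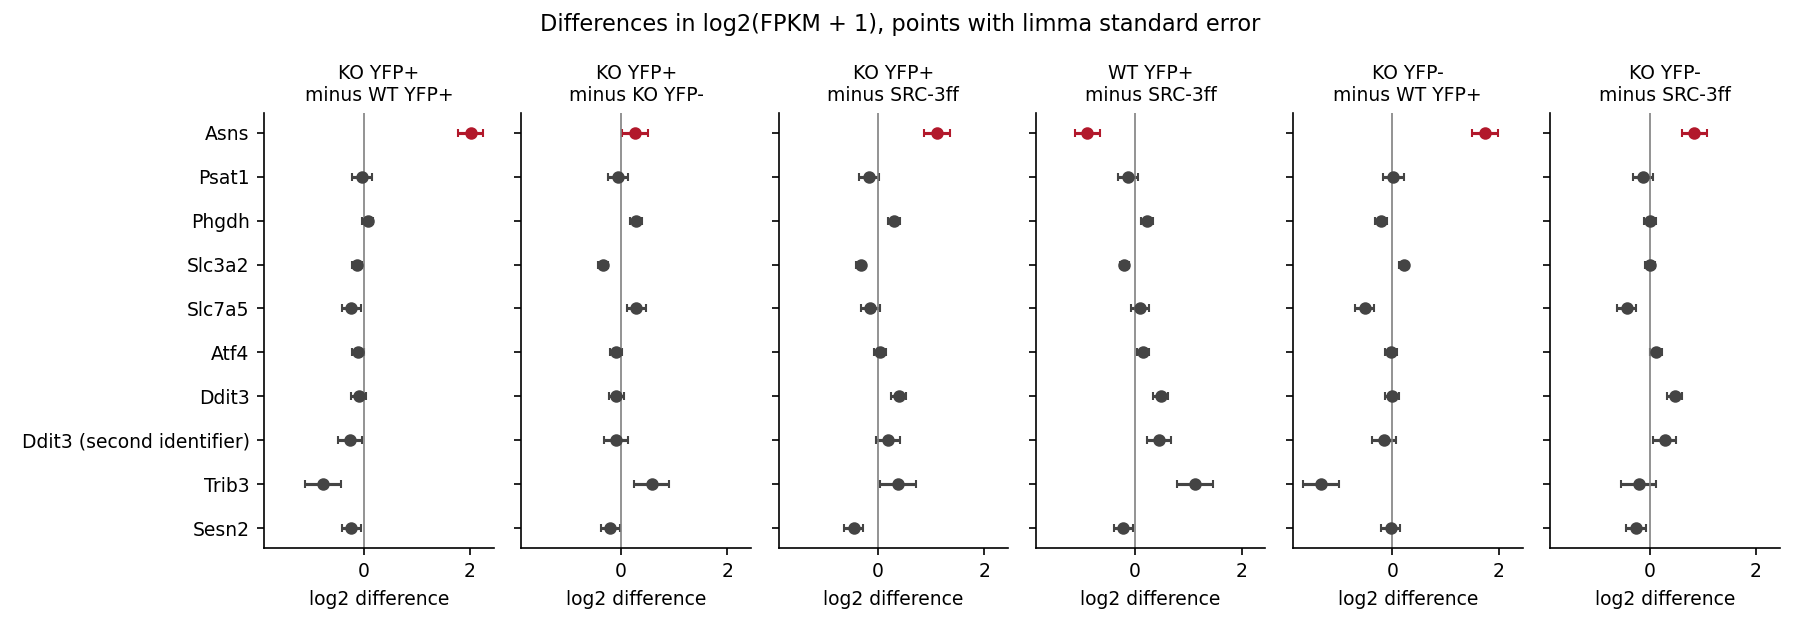
Differences in log2(FPKM + 1) between pairs of groups (first named minus second named) for the tested rows, with points for the limma estimate and bars for its standard error. Asns (red) stands at 2.01 in KO YFP+ minus WT YFP+ and at 1.74 in KO YFP- minus WT YFP+, while Trib3 stands at -0.76 and -1.34. Most other points lie near the zero line.

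Likeness to Asns was measured over all 8 libraries as the root mean square difference of centred log2(FPKM + 1) profiles, in log2 units, where a gene with no variation at all scores 0.81. All 9 other rows scored above that value, from 0.82 for Phgdh (rank 5907 of 14133 genes) to 1.24 for Trib3 (rank 13538), so each was farther from Asns than a flat line. By this measure 5079 genes were nearer than a flat line. The 6 nearest named genes were Med8 (0.40), a subunit of Mediator, Tnpo3 (0.40), an importin for splicing factors, Dynlt1b (0.40) and Dynlt1a (0.42), dynein light chains, Mxra8 (0.415), a cell surface protein, and Prxl2b (0.44), a peroxiredoxin-like protein. Dynlt1a and Dynlt1b are close paralogs, so their fragments may be divided between them.

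Med8 had 38.6 and 38.8 FPKM in KO YFP+, with 35.6 and 33.0 in KO YFP-, against 15.5 and 19.3 in WT YFP+ and 24.2 and 35.04 in SRC-3ff. Tnpo3 is the one of the 6 on chromosome 6, where Asns lies, and had 21.6 and 20.7 FPKM in KO YFP+, with 23.1 and 24.6 in KO YFP-, against 6.33 and 6.01 in WT YFP+ and 6.66 and 28.2 in SRC-3ff. SRC-3ff 72 was above KO YFP- 85 for Med8 and above all other libraries for Tnpo3, so neither gene shared the division of Asns between knockout mice and controls. Prxl2b did share it, with 4.81 to 5.94 FPKM in the knockout-mouse libraries and 2.15 to 4.08 in the controls. Dynlt1a, Dynlt1b and Mxra8 did not. All were picked for likeness to Asns, so nothing is read from this. Of the 6, 2 stayed among the nearest 6 when profiles were also scaled to the same spread and 3 with a pseudocount of 0.1, so the list depends on the measure. Of the 20 nearest rows, 8 were antigen receptor segments and 3 other pseudogenes.

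**Figure D3:**
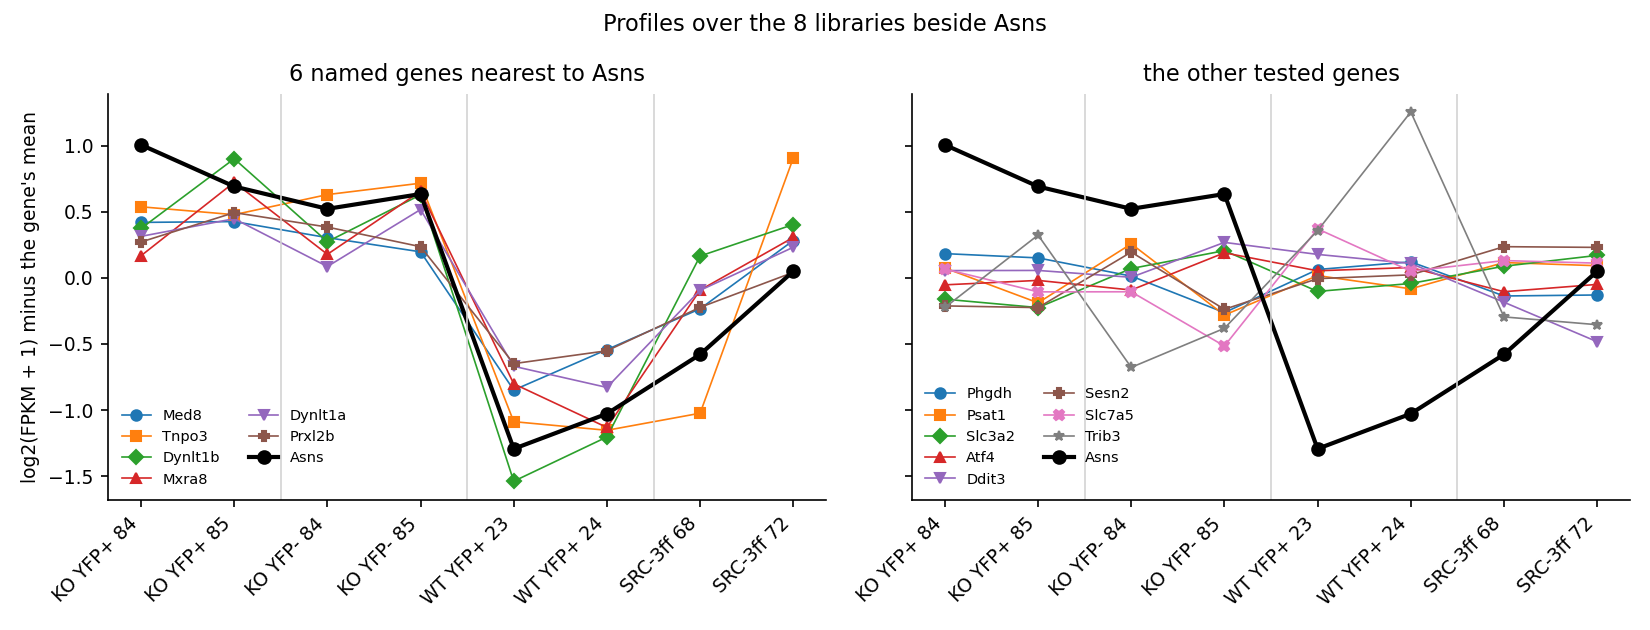
Centred log2(FPKM + 1) of each gene (vertical axis, log2 units from its own mean) over the 8 libraries (horizontal axis, grouped KO YFP+, KO YFP-, WT YFP+, SRC-3ff), with Asns in black. The 6 named genes nearest to Asns (left) dip with it in WT YFP+, while the other tested genes (right) stay near their means except Trib3, which peaks in WT YFP+ 24. Of Ddit3, the identifier with the higher mean is drawn.

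The nearest tested neighbours of Asns were looked at. The 3 tested genes on each side on chromosome 6 are Gm27018, Sem1 and Gm5873 before it and C1galt1, Rnps1-ps and Mios after it. Gm5873 ends at 6736492 and C1galt1 begins at 7844842, with Asns at 7675169 to 7693254. Genes this far apart cannot show whether the locus around Asns changed. None passed in any of the 6 comparisons. The smallest adjusted p was that of C1galt1, a glycosyltransferase gene, for KO YFP+ minus SRC-3ff (limma difference -0.60 ± 0.17, adjusted p = 0.066), opposite in sign to Asns. C1galt1 had 3.25 and 2.70 FPKM in KO YFP+, 3.11 and 3.31 in KO YFP-, 4.89 and 3.91 in WT YFP+ and 5.06 and 4.95 in SRC-3ff. All 4 knockout-mouse libraries thus lay below all 4 controls, the reverse of Asns and a pattern of 3.88% of tested genes. No other of these neighbours had either split. Sem1, a proteasome subunit gene, had 63.8 and 65.4 FPKM in KO YFP+ against 56.8 and 70.3 in WT YFP+, which overlap.

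The wider pathway was read from a list of 55 other integrated stress response genes, 41 of them tested. In KO YFP+ minus WT YFP+, 1 of the 41 passed and it was lower in KO YFP+ (Ppp1r15a). The count was 3 for KO YFP+ minus KO YFP- (1 higher, 2 lower), 6 for KO YFP+ minus SRC-3ff (all lower) and 3 for WT YFP+ minus SRC-3ff (all lower). It was 5 for KO YFP- minus WT YFP+ (2 higher, 3 lower) and 1 for KO YFP- minus SRC-3ff (lower). Over all genes 0.757%, 4.9%, 10.2%, 9.22%, 9.27% and 0.644% passed in these 6 comparisons, so counts of 1 to 6 of 41 lie near the background. The median difference of the list lay between -0.12 (WT YFP+ minus SRC-3ff) and 0.04 (KO YFP- minus WT YFP+), beside -0.025 and 0.03 over all genes in those comparisons. Against a control, Cebpb and Vars were the only list genes called higher in a group labelled knockout, both in KO YFP- minus WT YFP+, and this call of Cebpb ended with any of the 4 libraries left out (limma adjusted p of 0.064 to 0.18). Leaving out any 1 library of a comparison cut these counts to 0 in KO YFP+ minus WT YFP+, to 1 or 2 in KO YFP+ minus KO YFP-, to 0 to 2 in KO YFP+ minus SRC-3ff, to 1 in WT YFP+ minus SRC-3ff and to 2 or 3 in KO YFP- minus WT YFP+. For KO YFP- minus SRC-3ff the count was 0 without KO YFP- 84, KO YFP- 85 or SRC-3ff 68 and 1 without SRC-3ff 72.

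Ppp1r15a encodes GADD34, the subunit that directs a phosphatase to eIF2 and ends the response. It had 44.7 and 43.7 FPKM in KO YFP+, 34.8 and 37.3 in KO YFP-, 84.9 and 84.0 in WT YFP+ and 74.4 and 65.4 in SRC-3ff. It was set against Asns, with all 4 knockout-mouse libraries below all 4 controls, a pattern of 3.88% of tested genes. In KO YFP- minus WT YFP+ it fell by 1.21 on the log2 scale (limma adjusted p = 0.0014), a call that held with each library left out. In KO YFP- minus SRC-3ff the difference was -0.93 ± 0.09 (adjusted p = 0.023), a call that ended without KO YFP- 84 (adjusted p = 0.094), KO YFP- 85 (0.095) or SRC-3ff 68 (0.099) and in a fit of the 4 libraries alone (0.15).

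Cebpb encodes C/EBPβ, a partner of ATF4 at the response element. It had 7.21 and 6.71 FPKM in KO YFP+, 24.2 and 19.7 in KO YFP-, 14.7 and 12.1 in WT YFP+ and 15.5 and 13.9 in SRC-3ff. The 2 sorts of the knockout stood at opposite ends, with both controls between them. KO YFP+ minus KO YFP- was -1.52 ± 0.15 (limma adjusted p = 0.0047), and the call held with each library left out. Asns was high in both of these groups.

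Transfer RNA charging gave 1 called gene. Of 20 cytosolic aminoacyl-tRNA synthetase genes, many of which ATF4 raises under amino acid shortage, none passed in KO YFP+ minus WT YFP+ or in KO YFP- minus SRC-3ff. Over all genes 0.757% and 0.644% passed there. Vars alone, 5% of the list, passed in each of the 4 other comparisons, where 4.9% to 10.2% of all genes passed. These counts of called synthetase genes are near or below the background. Aars, a synthetase gene called in no comparison, had the split of Asns (14.94 to 22.97 FPKM over all libraries), as had 4.05% of all tested genes. Its promoter also held a match to the letters of the response element. Of the 41 tested genes of the wider integrated stress response list, Aldh18a1 (by a narrow margin), Gadd45a, Ppp1r15a, Slc38a2 and Slc43a1 had the reverse split. Over all tested genes 3.88% had it. Vars, the valyl-tRNA synthetase gene, had 39.5 and 35.1 FPKM in KO YFP+, 58.2 and 65.8 in KO YFP-, 22.9 and 25.3 in WT YFP+ and 53.8 and 57.9 in SRC-3ff. It was lowest in WT YFP+, as Asns was, but SRC-3ff stood above KO YFP+. KO YFP- minus WT YFP+ was 1.33 ± 0.11 (limma adjusted p = 0.0016) and WT YFP+ minus SRC-3ff was -1.18 ± 0.11 (adjusted p = 0.0019). Both calls held with each library left out, while no call of Vars for KO YFP+ held without KO YFP+ 84 or 85 (adjusted p of 0.063 to 0.13).

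The enzymes next to Asns in metabolism did not move past the threshold. Of 11 tested asparagine, aspartate and glutamine enzymes and of 9 tested serine and one-carbon enzymes, 0 passed in any of the 6 comparisons with limma, at shares of 0.644% to 10.2% of all genes. Asnsd1, a gene related to Asns in sequence, had 19.9 and 20.3 FPKM in KO YFP+, 23.9 and 20.8 in KO YFP-, 19.1 and 19.8 in WT YFP+ and 23.0 and 22.2 in SRC-3ff. Mthfd2, a mitochondrial one-carbon enzyme and known ATF4 target, had 30.1 and 25.0 FPKM in KO YFP+ and 26.2 and 26.9 in WT YFP+, which overlap.

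Among 10 tested amino acid transporters, 0 passed in KO YFP+ minus WT YFP+, WT YFP+ minus SRC-3ff and KO YFP- minus SRC-3ff. Over all genes 0.757%, 9.22% and 0.644% passed there. The count was 1 in KO YFP+ minus KO YFP-, 2 in KO YFP+ minus SRC-3ff and 2 in KO YFP- minus WT YFP+, where 4.9%, 10.2% and 9.27% of all genes passed. Those called elsewhere were Slc38a1 and Slc7a1, lower in KO YFP+, and Slc38a2 and Slc43a1, lower in KO YFP-. The calls of Slc43a1 (KO YFP- minus WT YFP+, limma adjusted p of 0.085 to 0.10) and of Slc38a1 in KO YFP+ minus KO YFP- (0.095 to 0.15) ended with any of the 4 libraries left out. That of Slc38a1 in KO YFP+ minus SRC-3ff ended without KO YFP+ 84 (0.059), KO YFP+ 85 (0.094) or SRC-3ff 72 (0.11). Slc38a2, the glutamine and alanine carrier SNAT2 and a known ATF4 target, had 13.9 and 15.6 FPKM in KO YFP- against 25.4 and 24.5 in WT YFP+ (difference -0.72 ± 0.12, limma adjusted p = 0.013). The call ended without KO YFP- 84 (adjusted p = 0.075), WT YFP+ 23 (0.066) or WT YFP+ 24 (0.059). Slc7a1, the arginine carrier CAT-1, had 3.499 and 3.13 FPKM in KO YFP+ against 8.40 and 8.96 in SRC-3ff (-1.17 ± 0.21, adjusted p = 0.021), a call that ended with any of the 4 libraries left out (adjusted p of 0.058 to 0.13). None of 17 amino acid sensors upstream of mTORC1 passed in 5 comparisons, at shares of 0.644% to 9.27% of all genes. Nprl2 was higher in KO YFP+ minus SRC-3ff (limma adjusted p = 0.029), where 10.2% of all genes passed. This call ended with any of the 4 libraries left out. Without a call, Slc36a1 (0.341 to 1.68 FPKM) and, by a narrow margin, Sec13 (67.9 to 79.5 FPKM) had the split of Asns. Among the 10 tested transporters, Slc36a4, Slc38a2, Slc43a1 and Slc43a2 had its reverse, and among the 17 sensors Wdr59 did. Over all tested genes 4.05% had the split and 3.88% its reverse. Of 14 genes for eIF2 kinases, eIF2B and phosphatase subunits, 3 were called in any comparison, namely Ppp1r15a, Ppp1r15b (lower in KO YFP+ minus SRC-3ff) and Eif2ak2 (higher in WT YFP+ minus SRC-3ff), where 10.2% and 9.22% of all genes passed. The call of Ppp1r15b ended without KO YFP+ 84 (limma adjusted p = 0.069), KO YFP+ 85 (0.10) or SRC-3ff 72 (0.13). That of Eif2ak2 ended without SRC-3ff 68 (0.081), SRC-3ff 72 (0.14) or WT YFP+ 24 (0.12) and in a fit of the 4 libraries alone (0.086). Eif2ak4, which encodes GCN2, was called in none and was low, at 3.00 and 1.80 FPKM in KO YFP+, 4.94 and 3.42 in KO YFP-, 2.04 and 0.700 in WT YFP+ and 1.27 and 2.83 in SRC-3ff.

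Part of the XBP1 and ATF6 arms of the unfolded protein response, which expand the folding capacity of the endoplasmic reticulum, divided by sort as Slc3a2 did. All 4 YFP+ libraries lay below the 4 others for 11 of the 17 tested genes, beside 10.9% of all genes. With limma, 0 of the 17 passed in KO YFP+ minus WT YFP+ and 0 in KO YFP- minus SRC-3ff. Lower in the YFP+ group were 3 genes in KO YFP+ minus KO YFP-, 7 in KO YFP+ minus SRC-3ff and 6 in WT YFP+ minus SRC-3ff, and 7 were higher in KO YFP- minus WT YFP+, where 4.9%, 10.2%, 9.22% and 9.27% of all genes passed. The summed level of the 17 genes was 974 and 1049 FPKM in KO YFP+, 1337 and 1393 in KO YFP-, 983 and 989 in WT YFP+ and 1240 and 1552 in SRC-3ff. Hsp90b1, the chaperone GRP94, had 54.4 and 48.9 FPKM in WT YFP+ against 97.3 and 124.7 in SRC-3ff (-1.08 ± 0.14, limma adjusted p = 0.0060), and that call held with each library left out.

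The summed plasma, B, NK and myeloid markers were also lower in every YFP+ library, while the summed CD8 T cell markers were higher. Singly, 6 of 8 tested plasma, 4 of 5 tested B, 6 of 6 tested NK and 1 of 1 tested myeloid markers were lower in all YFP+ libraries, beside 10.9% of all genes. Xbp1, at 66.9 to 111 FPKM, was not among them and is in both the plasma cell and the unfolded protein response lists. Summed over 8 plasma cell markers the level was 98.8 and 109 FPKM in KO YFP+, 515 and 363 in KO YFP-, 92.7 and 133 in WT YFP+ and 386 and 977 in SRC-3ff. Over 8 B cell markers it was 25.6 and 25.1 FPKM in KO YFP+, 77.2 and 58.0 in KO YFP-, 15.6 and 20.7 in WT YFP+ and 94.4 and 157 in SRC-3ff. Over 6 NK cell markers it was 1.05 and 0.440 FPKM in KO YFP+, 64.2 and 128 in KO YFP-, 1.05 and 1.01 in WT YFP+ and 36.8 and 76.1 in SRC-3ff. The 6 myeloid markers summed to 0.342 and 1.06 FPKM in KO YFP+, 4.29 and 2.58 in KO YFP-, 0.153 and 0.399 in WT YFP+ and 2.12 and 11.04 in SRC-3ff. The 2 CD8 T cell markers ran the other way, at 8.15 and 7.86 FPKM in KO YFP+, 5.72 and 5.11 in KO YFP-, 8.86 and 12.4 in WT YFP+ and 4.205 and 4.16 in SRC-3ff. None of these markers was listed at 0 in all libraries. The summed level of 6 Treg markers was 846 and 620 FPKM in KO YFP+, 933 and 632 in KO YFP-, 632 and 831 in WT YFP+ and 798 and 706 in SRC-3ff. Cd3e, at 216 to 459 FPKM, was its largest part, and the sum hides members that differed in order. Foxp3 was lower in the YFP+ libraries, as given above. Il2ra had 43.5 and 42.8 FPKM in KO YFP- against 83.1 to 113 elsewhere. Ikzf2 had 24.4 to 28.5 FPKM in the knockout-mouse libraries and 11.8 to 19.5 in the controls. The part of these cell type markers in the levels of Slc3a2 and of the unfolded protein response genes was not tested. Most of the unfolded protein response calls were not stable. With 1 library left out, 0 passed in KO YFP+ minus KO YFP- and in KO YFP- minus WT YFP+. For KO YFP+ minus SRC-3ff 0 passed without KO YFP+ 84, KO YFP+ 85 or SRC-3ff 72, and 6 without SRC-3ff 68. For WT YFP+ minus SRC-3ff 1 passed without WT YFP+ 23, WT YFP+ 24 or SRC-3ff 72, and 9 without SRC-3ff 68. Asns did not divide the libraries by sort, since KO YFP- stood beside KO YFP+ in Asns and beside SRC-3ff in these markers.

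**Figure D4:**
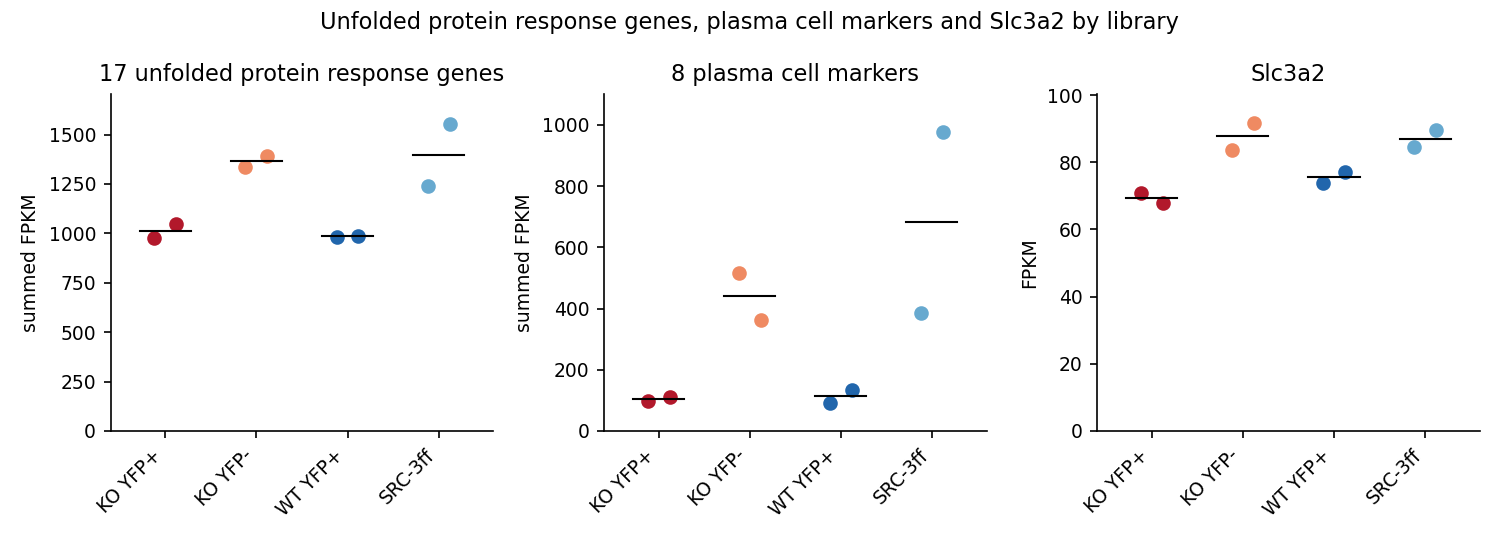
Summed FPKM of 17 unfolded protein response genes (left), summed FPKM of 8 plasma cell markers (middle) and FPKM of Slc3a2 (right) in every library. Points are libraries, bars are means of 2 libraries and axes are linear from 0. In all 3 panels both YFP+ groups, KO YFP+ and WT YFP+, lie below KO YFP- and SRC-3ff. Xbp1 is in both sums.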

How the data were processed

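Splenic Treg RNA of 8 libraries was sequenced after SMART-Seq v4 preparation, per the labels' protocols. The deposited table gives FPKM made by the authors with Trim Galore, STAR and StringTie on mm10 (GRCm38), per the submitters' processing notes. Versions, annotation and strand use were not given in the sources used here. These values are no counts, so depth is unknown, and a 0 can be a missing estimate.

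FPKM were used as deposited. Limma 3.58.1 in R 4.3.3 (eBayes with trend) was fitted on log2(FPKM + 1) to the 14134 genes that reached 1 FPKM in 2 or more libraries, as 1 model of 4 groups (4 residual degrees of freedom, 6 comparisons). P-values were adjusted within a comparison by the Benjamini-Hochberg method (threshold 0.05). The log scale understates changes of low genes. The test was tested on simulated data. Coordinates are from GENCODE M21. Python 3.11.15 with pandas 2.3.3, scipy 1.17.1 and matplotlib 3.10.9 made tables and plots.

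Members and gene lists were chosen with earlier results of these data known. Named were all 10 members, the 6 genes nearest to Asns (no predicted genes, pseudogenes or receptor segments) and part of the list genes with the smallest p. Genes given for comparison without a call were chosen after their values were seen. Alternatives were a pseudocount of 0.1, no filter, a 5 FPKM filter, median-of-ratios scaling, quantile normalization, only the 4 libraries compared, each library left out and the block.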

Additional observations from a re-analysis of the deposited data

How the results depend on the processing

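The 10 tested rows gave 658 differences under an alternative. Of these, 27 changed sign, 4 newly passed, 3 moved by more than the spread and the other 624 kept their direction. These labels do not count the loss of the Asns call in KO YFP+ minus WT YFP+, which is given next. In KO YFP+ minus WT YFP+ the count was 1, Asns, which this contrast selected, so nothing is read from it, and it was 0 with no filter, in the 4 libraries alone and with any library left out. Counts in the other comparisons leave Asns out, except in KO YFP- minus SRC-3ff. Trib3 was newly called in KO YFP- minus WT YFP+ (count 1) with a pseudocount of 0.1 and with quantile normalization, and with libraries left out 0 to 1 passed there and in WT YFP+ minus SRC-3ff. In the other 3 comparisons 0 passed under every alternative run.

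The other integrated stress response genes moved from 1 to 0 in KO YFP+ minus WT YFP+, from 6 to 3 in KO YFP+ minus SRC-3ff, from 3 to 1 in WT YFP+ minus SRC-3ff, from 5 to 3 in KO YFP- minus WT YFP+ and from 1 to 0 in KO YFP- minus SRC-3ff when only the 4 libraries were fitted. They moved to 1 in KO YFP+ minus KO YFP- with no filter and to 1 in WT YFP+ minus SRC-3ff with the 5 FPKM filter. With libraries left out the ranges were 0 to 0, 1 to 2, 0 to 2, 1 to 1, 2 to 3 and 0 to 1. The unfolded protein response counts, added after seeing the data, were 0 (KO YFP+ minus KO YFP-, KO YFP+ minus SRC-3ff, KO YFP- minus WT YFP+) or 1 (WT YFP+ minus SRC-3ff) with no filter, 0 and 1 in the 4 libraries for the SRC-3ff comparisons, and 0, 0 to 6, 1 to 9 and 0 with libraries left out. Fewer libraries or more genes entered these fits.

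KO YFP+ and KO YFP- share the numbers 84 and 85, but the labels do not say that a number marks an animal. Deviations of same-numbered libraries correlated at 0.14 across genes. With number as a replicate block, none of these counts changed (1 in KO YFP+ minus WT YFP+, 0 elsewhere, with Asns left out as above). As a fixed block over the 4 knockout libraries it gave 6 unfolded protein response genes in place of 3.

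Sign changes were all of uncalled differences. The largest of these in size in the main fit was -0.197, for Sesn2 in KO YFP+ minus KO YFP-. With median-of-ratios scaling they were Psat1 -0.006 (KO YFP- minus WT YFP+), Phgdh -0.001 and Slc3a2 -0.001 (KO YFP- minus SRC-3ff). With quantile normalization they were Psat1 0.023 (KO YFP+ minus KO YFP-) and -0.046 (KO YFP- minus WT YFP+), Phgdh -0.005 and Slc3a2 -0.004 (KO YFP- minus SRC-3ff). The other 20 came with 1 library left out. In KO YFP+ minus KO YFP- the differences then ranged from -0.226 to 0.056 for Atf4, -0.213 to 0.051 for Ddit3, -0.353 to 0.17 for its second identifier, -0.315 to 0.224 for Psat1 and -0.413 to 0.019 for Sesn2. In KO YFP- minus WT YFP+ they ranged from -0.158 to 0.124 for Atf4, -0.139 to 0.125 for Ddit3, -0.404 to 0.085 for its second identifier, -0.249 to 0.29 for Psat1 and -0.246 to 0.186 for Sesn2. In KO YFP- minus SRC-3ff they ranged from -0.015 to 0.267 for Atf4, -0.386 to 0.154 for Psat1, -0.129 to 0.147 for Phgdh and -0.058 to 0.077 for Slc3a2. For Ddit3's second identifier the range was -0.068 to 0.454 in KO YFP+ minus SRC-3ff, and for Slc7a5 it was -0.07 to 0.25 in WT YFP+ minus SRC-3ff. The cause was not tested. With 2 libraries a group and unknown depth, differences of the size seen in most of the 10 genes could not be told from the spread.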
